A study of Mus musculus with 8 samples.

Results

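The comparison is between a genetically modified line of parthenogenetic mouse embryonic stem (ES) cells, whose arrays carry a label of lowered H19 expression, and the unmodified parthenogenetic ES cells. It was defined by the sample titles and takes in 4 of the 8 arrays of the series, 2 in each group. The other arrays were 2 of parthenogenetic ES cells labelled as overexpressing Igf2 and 2 of normal ES cells. All were given as B6D2F1 hybrid, the cell type label was mouse oocytes for the parthenogenetic cells and mouse embryo for the normal cells, and total RNA was measured on Illumina bead arrays. Both modified lines share the parthenogenetic origin of their control, so by their labels both groups carry maternal genomes alone. The labels used here give no construct, number of clones, passage or feeder layer, and they do not say whether replicates came from separate cultures, so each p-value measures only the spread between these arrays.

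Imprinted genes are expressed from the maternal or the paternal copy only. H19, a noncoding RNA, is expressed from the maternal chromosome, and its neighbour Igf2, a growth factor, from the paternal one, under a shared control region that binds CTCF. Cells with only maternal genomes therefore express H19 from each copy and lack the paternal dose of genes such as Igf2 and Snrpn. ES cells also express some germline genes at a low level, which DNA methylation of CpG-rich promoters keeps down in most other cells, and WNT, NODAL and FGF signals set how close the cells stand to the naive or the primed state.

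No probe is named H19 in the annotation used here, so the lowered H19 of the label could not be checked (0 probes). The Igf2 probe read 33163 and 29655 intensity units on the H19-labelled arrays against 48301 and 50505 on the parthenogenetic arrays. In the Igf2-labelled line it read 50496 and 42088 units and in normal cells 54664 and 13183. Igf2 was thus lower on both H19-labelled arrays than in their control, by 0.64 on the normalized log2 scale (SE 0.08, adjusted p = 0.00166), and the Igf2-labelled arrays did not stand above it. These readings lie near the top of the scale, where the brightest probes of the arrays read 64070 to 67905 units. When the normal arrays were added to the fit, the Igf2 change missed the threshold (adjusted p = 0.527). Igf2 log2 levels of the normal replicates lay far apart (15.62 and 13.63), and they are set beside the fibroblast genes below.

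For Igf2, the parthenogenetic arrays read between the normal arrays in intensity. The normal arrays lay far apart and the probe read near the top of the scale. Whether a paternal dose of Igf2 was missing could therefore not be judged from these readings. Snrpn, a paternally expressed splicing factor gene, was looked at as a check of the maternal origin. Its log2 level was 8.89 and 9.09 on the H19-labelled arrays and 9.16 and 9.24 on the parthenogenetic arrays, against 13.14 and 13.38 on the normal arrays. Both groups of this comparison were far below the normal cells and did not differ past the threshold (log2 change -0.22, adjusted p = 0.117). On the Igf2-labelled arrays Snrpn stood at 11.44 and 11.42, and the H19-labelled line was 5.44-fold below it (adjusted p = 0.000578). ES cell markers were high in each group. Pou5f1, a core pluripotency factor, was at 14.08 and 13.96 on the H19-labelled arrays and at 13.89 and 13.74 in the control (adjusted p = 0.135). Nanog and Sox2, its partners, rose by 0.50 and 0.40 on the log2 scale (adjusted p = 0.00478 and 0.0263), and Nanog lies on chromosome 6, described below.

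Each array detected 47.1% to 49.5% of its 25697 probes. Replicate arrays of the parthenogenetic, Igf2-labelled and H19-labelled groups differed by more than 1 log2 unit at 20 or 21 of the 12669 probes kept, whereas the normal arrays did so at 1000 probes, so the fit used the 6 arrays of the other groups. A probe was called when its Benjamini-Hochberg adjusted p-value was under 0.05. Against the parthenogenetic cells 2119 probes rose and 2224 fell, together 34.3% of those tested, and 390 of them changed at least 2-fold (165 up and 225 down). Taking 1 probe for each of 8622 genes, 1393 genes rose (16.2%) and 1609 fell (18.7%), with a median absolute log2 change of 0.52 among those called. Without parthenogenetic replicate 1 or H19-labelled replicate 2 the number of probes called was 2882 and 2834. The 2 groups did not overlap at 6114 genes, or 70.9%. The median change of all genes was 0.01. Genes are named only where the probe was detected on at least 4 of the 8 arrays, since the annotation covers no other probe, so genes detected on the H19-labelled arrays alone are among the 888 unnamed probes kept.

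**Figure D1:**
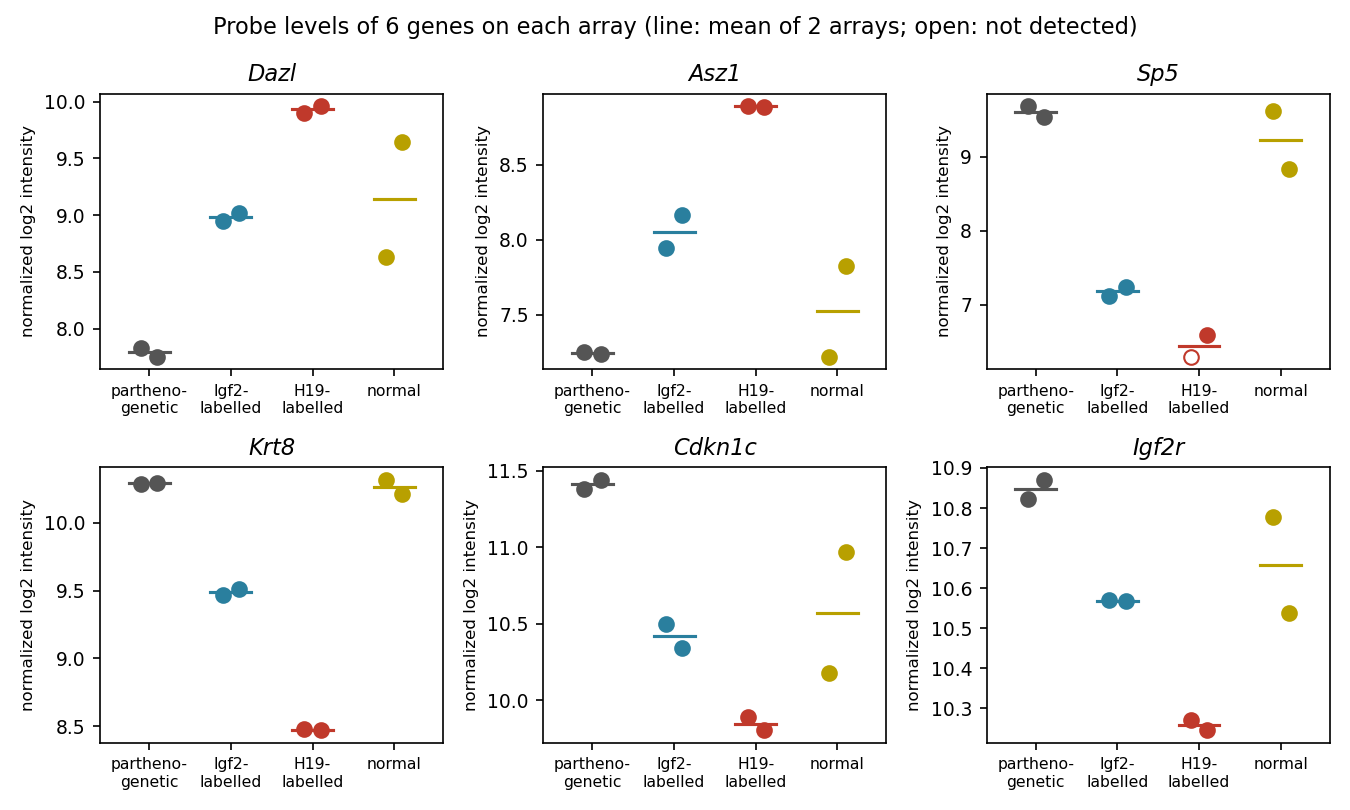
Normalized log2 intensity of the probes for Dazl, Asz1, Sp5, Krt8, Cdkn1c and Igf2r on each of the 8 arrays, with a line at the mean of each group's 2 arrays and open points where the probe was not detected; vertical axes differ and do not start at 0. The H19-labelled points are the highest of the 4 groups for Dazl and Asz1 and the lowest for the other 4 genes, and the parthenogenetic points lie at the opposite end or close to it.

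Genes of chromosome 6 were mostly higher in the H19-labelled line. Of 433 chromosome 6 genes, 256 rose (59.1%) and 52 fell (12%), 23 of the rises were at least 2-fold, and 333 genes were higher. The median change was 0.41 on the log2 scale, or 1.33-fold, with quartiles of 0.04 and 0.64. On the other chromosomes with at least 10 genes the median lay between -0.06 and 0.05, and 9.44% to 17% of genes rose. In gene order along chromosome 6, the median of each of 10 parts lay between 0.24 and 0.47, so no end of the chromosome was without the shift. Against the mean of the parthenogenetic arrays, the chromosome's median was 0.42 and 0.41 on the H19-labelled arrays, 0.33 and 0.31 on those of the Igf2-labelled line, and 0.00 and 0.04 on those of normal cells. Both modified lines thus stood above both unmodified groups, and the median difference between the modified lines was 0.05. The fit with the normal arrays called 74 of the chromosome's genes.

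**Figure D2:**
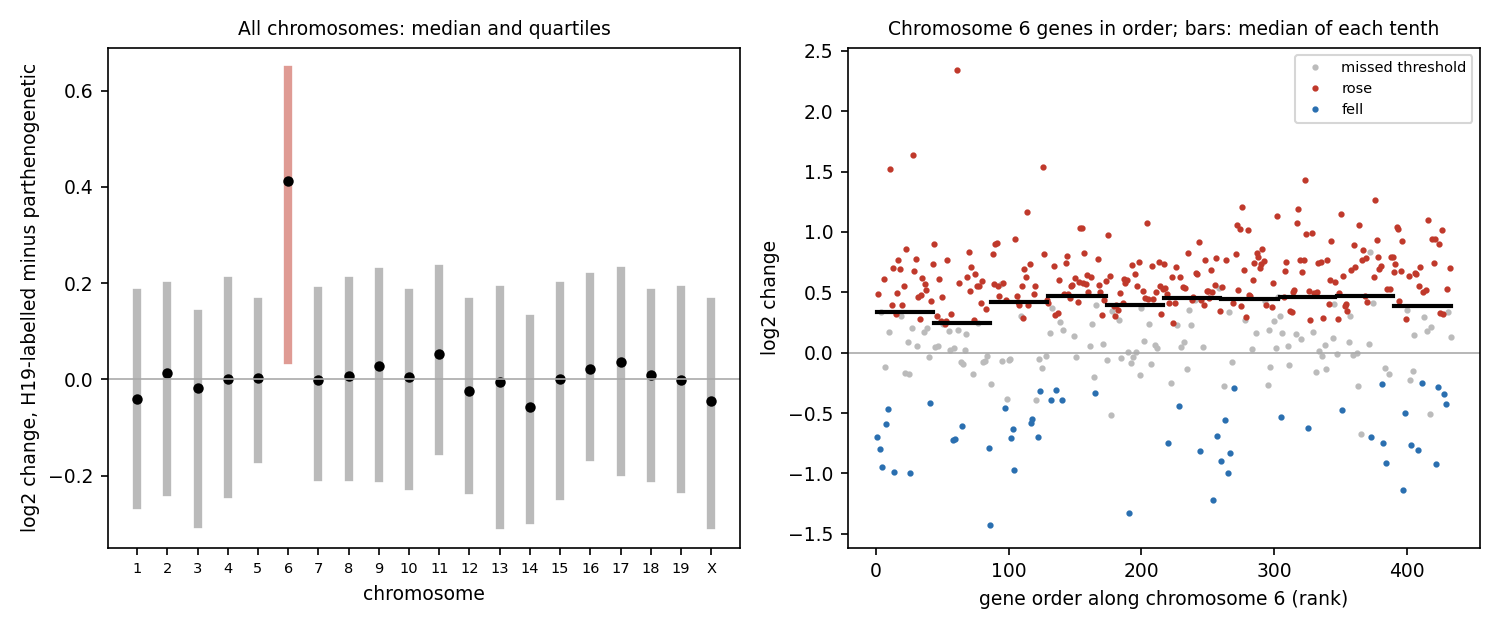
Left, median (point) and quartiles (bar) of the log2 change of genes on each chromosome, H19-labelled minus parthenogenetic; right, chromosome 6 genes in order, coloured by the test, with a bar at the median of each of 10 parts with about the same number of genes. Chromosome 6 is the only chromosome drawn whose quartiles both lie above 0, and its 10 parts have medians between 0.24 and 0.47.

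The chromosome 6 genes that rose most included germline genes. Stra8, which germ cells need to enter meiosis, had log2 levels of 8.93 and 9.60 on the H19-labelled arrays against 6.96 and 6.89 in the control (5.06-fold, adjusted p = 0.00111), and 7.38 and 9.50 on the normal arrays. Asz1, a partner of the piRNA pathway that restrains transposons in germ cells, stood at 8.89 on each H19-labelled array against 7.26 and 7.24. Asz1 was 3.12-fold higher (adjusted p = 0.000296), and the Igf2-labelled arrays lay between at 7.94 and 8.16. Plekha8, Slc25a13 (a mitochondrial aspartate-glutamate carrier), Mical3 and Tead4 (a transcription factor of the Hippo pathway) rose by 1.54, 1.53, 1.43 and 1.27. The called falls ran against the chromosome's median. The smooth muscle actin gene Actg2 fell by 1.33, Trh, the precursor of thyrotropin-releasing hormone, by 1.22, Pbp2 by 1.14, Gxylt2 by 1.00 and the caveolar protein gene Cav1, which is also on the fibroblast list, by 0.99. The receptor tyrosine kinase gene Epha1 was not detected on either H19-labelled array and was at least 2.14-fold lower (adjusted p = 0.0235). Without H19-labelled replicate 1 or parthenogenetic replicate 2 Epha1 missed the threshold (adjusted p = 0.11 and 0.117), and Stra8, Plekha8, Mical3 and each of these falls missed it with the normal arrays in the fit. With no background correction Stra8 changed by 1.72, against 2.34 here.

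Genes typical of fibroblasts, the usual feeder layer of ES cultures, were lower in the H19-labelled line. Of 46 listed genes 38 were measured, none rose, 36 fell and all 38 were lower, with a median change of -0.85. Of all genes 18.7% fell. In bulk RNA, fewer cells of a type and less RNA per cell cannot be told apart. Thy1, a fibroblast surface protein, stood at 11.63 and 11.67 on the H19-labelled arrays and at 12.56 and 12.67 on the parthenogenetic arrays (log2 change -0.96, adjusted p = 0.000566). Col1a1, the main collagen chain gene of fibroblasts, stood at 11.40 and 11.45 against 12.29 and 12.54 (-0.99, adjusted p = 0.00109). Col1a2 and Col3a1, further collagen genes, fell by 0.95 and 0.46, and no defining marker was undetected on any of the 4 arrays. The largest falls were of Thbs1 (-1.41), an adhesion glycoprotein, Lgals1 (-1.10), Acta2 (-1.05), Timp3 (-1.04) and Lox (-1.02). These 5 missed the threshold with the normal arrays in the fit. Mgp (-0.22, adjusted p = 0.069) and Twist1 (-0.38, adjusted p = 0.0671) missed it.

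The mean log2 level of the 38 fibroblast genes was 10.96 and 10.98 on the H19-labelled arrays, 11.75 and 11.77 on the parthenogenetic arrays, 11.54 and 11.57 in the Igf2-labelled line, and 11.79 and 10.42 in normal cells. The list therefore differed between the normal replicates, with a median of 1.30 for replicate 1 minus replicate 2, by more than it differed between the groups compared. The H19-labelled line was also below the Igf2-labelled line, with 33 of the 38 genes called lower, where 13.1% of all genes were called lower and 8.83% higher. Eif2s3y, a Y-linked gene picked out after its values were seen, read 263 and 256 units on the H19-labelled arrays against 378 and 370 on the parthenogenetic arrays, 405 and 415 in the Igf2-labelled line, and 2053 and 2052 in normal cells. Eif2s3y was detected in every group, the parthenogenetic lines included, and fell by 0.73 in the H19-labelled line (adjusted p = 0.00211). The Igf2 probe had its lowest log2 level, 13.63, in normal replicate 2, the array with the lowest fibroblast mean. Next came the H19-labelled arrays (14.98 and 14.94), which also had the next lowest fibroblast means. Igf2 levels on the other arrays lay between 15.49 and 15.62. Whether the falls of Igf2 and of the fibroblast genes have a common source was not tested.

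**Figure D3:**
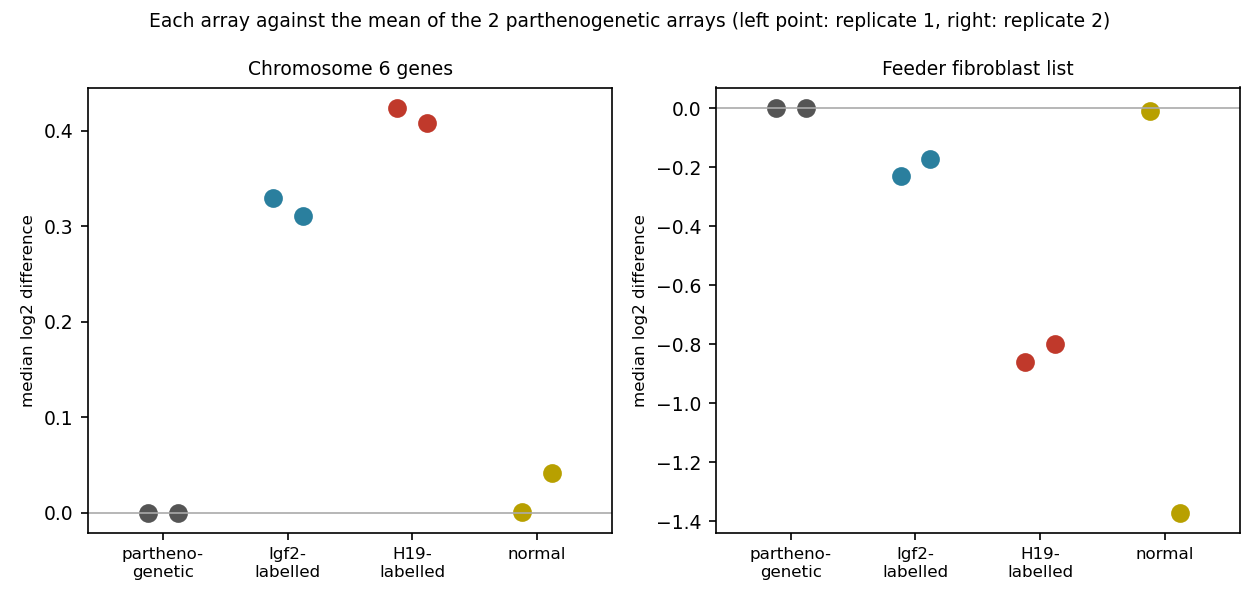
Median log2 difference of chromosome 6 genes (left) and of the 38 measured genes of the feeder fibroblast list (right) on each array from the mean of the 2 parthenogenetic arrays; vertical axes differ. The H19-labelled arrays stand at 0.42 and 0.41 for chromosome 6 and at -0.86 and -0.80 for the fibroblast list, and the normal arrays lie apart from each other in the right panel (-0.01 and -1.37).

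Off chromosome 6 and off the fibroblast list, 1137 of 8156 genes rose and 1525 fell, 81 and 133 of them at least 2-fold. Genes that fell were often those that also differed between the normal arrays: 80.7% of the falls were higher on normal replicate 1 than on replicate 2, and 24.4% by more than 1 log2 unit, against 45.7% and 5.64% of all genes. Of the rises 25.3% were higher on normal replicate 1. Since replicate 2 was also the normal array with low fibroblast genes, the median normal difference (replicate 1 minus replicate 2) is given below for each list. The part of this difference in the changes was not tested. List counts below include members on chromosome 6 and on the fibroblast list unless said otherwise. Counts without those members are added for some lists only. Each list count stands against 16.2% of all genes that rose and 18.7% that fell. Over genes detected on all 4 arrays these shares were 16.3% and 18.1%. Over genes off chromosome 6 and the fibroblast list they were 13.9% and 18.7%.

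**Figure D4:**
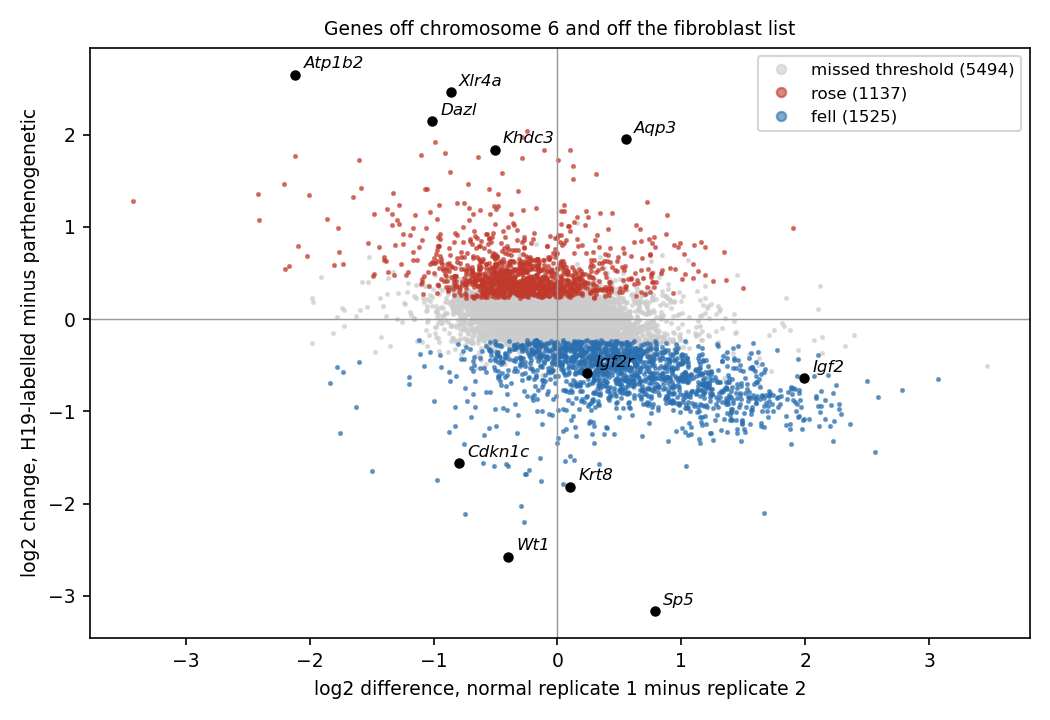
Each point is 1 of the 8156 genes off chromosome 6 and off the fibroblast list; the horizontal axis is normal replicate 1 minus replicate 2 and the vertical axis H19-labelled minus parthenogenetic, both in log2 units, coloured by the test of the vertical change. Falls gather at the right, where 80.7% of them lie above 0. Among the labelled falls, the normal difference was 0.79 for Sp5, 0.10 for Krt8 and -0.40 for Wt1.

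Germ cell and meiosis genes were higher in the H19-labelled line. Of 14 measured genes 11 rose and 1 fell, with a median log2 change of 1.01, and each of the 14 was detected on all 4 arrays. Off chromosome 6 the count was 9 of 12, with a median of 0.70. The median normal difference was -0.53, so these genes were higher on normal replicate 2. Dazl, an RNA-binding protein needed for germ cell development, stood at 9.90 and 9.96 on the H19-labelled arrays, 7.83 and 7.75 on the parthenogenetic arrays, 8.95 and 9.02 in the Igf2-labelled line, and 8.63 and 9.64 in normal cells. Dazl was 4.41-fold higher than in the control and 1.93-fold higher than in the Igf2-labelled line (adjusted p = 0.000114 and 0.0017).

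Tex13b, a testis-expressed X-linked gene, stood at 10.16 and 10.20 against 8.02 and 8.27 (4.11-fold, adjusted p = 0.000265). Tex11, an X-linked meiosis gene needed for chromosome synapsis, rose by 1.37 and Smc1b, the meiotic cohesin subunit, by 1.23. Further rises were of Taf7l, Stag3, Tex19.1, Piwil2 and Ddx4, down to 0.32. Rec8, another meiotic cohesin subunit, ran the other way, at 8.58 and 8.29 against 9.32 and 9.10 (-0.78, adjusted p = 0.00467). Dnd1 and Tfap2c, which act in primordial germ cells, changed by 0.02 and 0.06 and missed the threshold, although another Tfap2c probe rose by 0.37 (adjusted p = 0.0138). Adding the normal arrays to the fit left 7 genes of the list called, and Stra8 and Tex11 missed the threshold.

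The promoters of the germ cell genes that rose most are shown because CpG-rich germline promoters are the class that DNA methylation is known to hold silent. They are RefSeq sequences of GRCm38.p6, 250 bases before to 50 bases after the start of the gene, and capitals mark each CG.
Stra8 (chr6:34920698-34920997, plus strand): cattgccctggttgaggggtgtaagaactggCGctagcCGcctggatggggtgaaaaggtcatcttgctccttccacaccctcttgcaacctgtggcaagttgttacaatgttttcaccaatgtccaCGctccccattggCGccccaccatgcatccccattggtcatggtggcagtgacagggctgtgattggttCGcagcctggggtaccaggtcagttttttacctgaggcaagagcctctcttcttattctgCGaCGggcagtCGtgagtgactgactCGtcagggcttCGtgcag
Dazl (chr17:50293571-50293870, minus strand): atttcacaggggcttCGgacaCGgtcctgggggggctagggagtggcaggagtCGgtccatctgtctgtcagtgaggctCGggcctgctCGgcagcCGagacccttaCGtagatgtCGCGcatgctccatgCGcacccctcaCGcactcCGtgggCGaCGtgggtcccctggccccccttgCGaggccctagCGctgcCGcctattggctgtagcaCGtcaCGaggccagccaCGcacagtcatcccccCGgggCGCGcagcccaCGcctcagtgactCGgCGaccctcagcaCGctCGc
Tex13b (chrX:140813384-140813683, minus strand): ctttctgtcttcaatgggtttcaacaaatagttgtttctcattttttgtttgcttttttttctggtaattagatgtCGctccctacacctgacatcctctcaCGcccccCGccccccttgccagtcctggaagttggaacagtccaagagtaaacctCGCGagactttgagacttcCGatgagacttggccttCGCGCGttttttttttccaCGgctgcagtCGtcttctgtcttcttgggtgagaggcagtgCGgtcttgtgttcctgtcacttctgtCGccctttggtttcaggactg
Stra8 has 10 CG, Dazl 28 and Tex13b 13, where 43.4%, 14.2% and 37.9% of the 32817 promoters in the table have at least as many. Of the 11 germ cell genes that rose, 9 matched a promoter there, with 10 to 38 CG each, all above the median of 7 over all promoters. That median is not limited to genes measured here. Promoters of list members that did not rise were not counted. The arrays hold no measure of methylation.

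The X-linked Rhox and Xlr genes, a homeobox cluster and a family of chromatin proteins that include imprinted members, were each higher. All 4 measured members of 24 listed rose, and 3 of those were detected on all 4 arrays, Rhox6 being undetected on 1 parthenogenetic array. The median was 1.68 and the normal difference -0.38. Xlr4a averaged 9.93 ± 0.098 (SD, n = 2) on the H19-labelled arrays against 7.55 and 7.38 in the control (5.51-fold, adjusted p = 0.000143), Rhox6 at 8.41 and 8.27 against 6.42 and 6.59, and Rhox9 at 9.67 and 9.45 against 7.93 and 8.15. Rhox6, Rhox9 and Rhox5 were nonetheless lower than on the Igf2-labelled arrays, by 0.85, 1.18 and 0.48 (adjusted p = 0.00284, 0.00223 and 0.0106), where Rhox9 reached 10.83 and 10.64. Rhox5, the smallest rise (0.47), missed the threshold with the normal arrays in the fit (adjusted p = 0.541), which called the other 3, and Rhox6 changed by 1.83 here and by 1.19 with no background correction. Members of these families have close copies, and a probe may read more than 1 of them. The 280 genes of the X chromosome had a median change of -0.04.

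Genes of the oocyte and early embryo split. Of 11 measured genes 5 rose and 2 fell, with a median of 0.18 and a normal difference of -0.40, and of the 8 detected on all 4 arrays 5 rose and 1 fell. The rises were of genes for the subcortical maternal complex of the oocyte and of embryo factors. Khdc3, a subunit of that complex, stood at 11.51 and 11.53 against 9.69 and 9.68 (3.57-fold, adjusted p = 0.00012). Its partners Ooep and Tle6 rose by 0.64 and 0.70, and Tcl1, a cofactor of AKT, by 0.87. Zp3, an egg coat protein gene, fell by 0.52, while Zscan4c, which marks a rare state of ES cells that resembles the early embryo, was at 8.46 and 8.50 against 8.44 and 8.15 (adjusted p = 0.233). The fit with the normal arrays called 2 of them.

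Other large rises were of varied function. Atp1b2, a beta subunit of the sodium pump, was not detected on either parthenogenetic array and stood at 9.04 and 9.07 on the H19-labelled arrays, at least 5.76-fold higher (adjusted p = 7.64e-05). Its levels in normal cells were 6.24 and 8.36, and with those arrays in the fit it missed the threshold (adjusted p = 0.0551). Aqp3, a channel for water and glycerol, stood at 12.10 and 12.01 against 10.15 and 10.06 (3.87-fold, adjusted p = 0.000274). The tissue kallikrein gene Klk1, the atrial myosin light chain gene Myl7 and Il4i1, an amino acid oxidase gene, were undetected in the control and at least 3.70-, 3.01- and 3.02-fold higher. Rpl3l, a ribosomal protein gene of striated muscle, rose by 1.80 and the microtubule protein gene Mapt by 1.77, with a second Mapt probe at 0.50.

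Sp5 fell far. It encodes a transcription factor that WNT signals through beta-catenin induce directly. It stood at 6.30 and 6.60 on the H19-labelled arrays, where only the second array detected it, against 9.69 and 9.54 on the parthenogenetic arrays (8.96-fold lower, adjusted p = 0.00012). With a reading at background on 1 of the 2 arrays the size of this fall depended on the background treatment, and the log2 change was -3.16 here and -2.29 with no background correction. The Igf2-labelled arrays read 7.12 and 7.24 and those of normal cells 9.62 and 8.84, so both modified lines lay below both other groups. Against the Igf2-labelled line Sp5 was lower in the H19-labelled line (adjusted p = 0.00961), with the same limit from the reading at background. Of 15 measured genes of the WNT list 11 fell and 2 rose, with a median of -0.68 and a normal difference of -0.13, and of the 13 detected on all 4 arrays 9 fell and 2 rose.

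Feedback genes and ligands were among the falls. Axin2, a feedback inhibitor of the pathway, stood at 7.85 and 7.81 against 8.87 and 9.11 (-1.16, adjusted p = 0.000662). Notum, which inactivates WNT proteins, fell by 0.98, the DKK receptor gene Kremen1 by 0.77, and Tnfrsf19, a known target, by 1.75. Wnt8a, a ligand, was at 7.58 and 7.55 in the control, was detected on neither H19-labelled nor Igf2-labelled array, and was at least 1.94-fold lower (adjusted p = 0.00012). Lef1, a factor that binds with beta-catenin, and the receptor Fzd7 fell by 0.45 and 0.74. Tcf7l1, a repressor of WNT targets on chromosome 6, and Sfrp1 rose by 0.50 and 0.60, and Ctnnb1, which encodes beta-catenin, was at 13.90 and 13.87 against 13.97 and 14.08 (adjusted p = 0.205). Against the Igf2-labelled line Axin2 and Tnfrsf19 differed by -0.07 and -0.01 (adjusted p = 0.649 and 0.965), and Notum and Lef1 were higher, by 0.49 and 0.62 (adjusted p = 0.0296 and 0.0163). In the fit of all 8 arrays 6 genes of the list were called.

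The Sp5 promoter is shown for its matches to sequences of the kind that TCF and LEF factors bind. Capitals mark matches on either strand to the letters CTTTGAA, or equally to the letters CTTTGAT, or to the letters CTTTGTA, or to the letters CTTTGTT, none of which overlap here.
Sp5 (chr2:70474673-70474972, plus strand): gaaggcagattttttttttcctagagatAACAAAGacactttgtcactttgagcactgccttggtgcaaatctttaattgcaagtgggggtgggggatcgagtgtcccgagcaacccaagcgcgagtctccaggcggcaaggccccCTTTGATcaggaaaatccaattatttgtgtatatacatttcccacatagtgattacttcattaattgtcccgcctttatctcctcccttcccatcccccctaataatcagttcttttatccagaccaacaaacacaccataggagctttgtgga
It holds 2 matches, CTTTGTT on the minus strand (capitals read AACAAAG) and CTTTGAT on the plus strand. Any of these letters occur in 16.9% of all promoters in the table. Of the 11 WNT genes that fell 5 matched a promoter and 4 of them hold a match (Sp5, Fzd7, Lef1 and Tnfrsf19). Of the 9 germ cell genes with a promoter 1 does (Ddx4). A gene was counted if any of its promoters held a match, whereas the 16.9% counts single promoters. The shares are therefore not alike, and enrichment was not tested. A match is a stretch of letters and not a measured site.

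NODAL and activin genes fell in part. Of 16 measured genes, each detected on all 4 arrays, 9 fell and 2 rose, with a median of -0.37. Off chromosome 6 and the fibroblast list 8 of 14 fell and 1 rose. Lefty1, a feedback inhibitor of NODAL, stood at 10.61 and 10.69 against 12.21 and 12.29 (3.03-fold lower, adjusted p = 0.000265). Fst, an activin antagonist, fell by 1.79, Inhba, an activin subunit, by 0.98, and Lefty2 by 0.67. Lefty2 was nonetheless 1.98-fold higher than in the Igf2-labelled line (adjusted p = 0.0017), with levels of 9.17 and 9.11 against 8.10 and 8.20. Foxh1, a partner of SMAD proteins, rose by 1.21 (a second probe gave 0.45), whereas the ligand gene Nodal was at 10.65 and 10.60 against 10.58 and 10.68 (adjusted p = 0.929). Inhba and Fstl1 are also made by fibroblasts, and the list's median normal difference was 0.29. The fit of all 8 arrays called 3, and Inhba, Lefty2 and Fstl1 missed the threshold (adjusted p = 0.387, 0.118 and 0.12).

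FGF ligands and genes of the ERK response moved both ways. Of 18 measured genes 10 fell and 3 rose, with a median of -0.45 and a normal difference of -0.01. Of the 16 detected on all 4 arrays 9 fell. Rasgrp1, an activator of RAS, was at 8.11 and 8.31 in the control, was detected on neither array of either modified line, and was at least 3.05-fold lower (adjusted p = 0.000239). Etv5 fell by 1.14, Fosl1 by 1.00 and Fgfbp1 by 0.97, whereas Etv4, a factor of the same family as Etv5, rose by 1.03 and Fgf4, the main FGF of ES cells, by 0.84. Dusp6, a phosphatase that turns off ERK, missed the threshold (-0.29, adjusted p = 0.0633), although its other probes fell by 0.40 and 0.70. With all 8 arrays in the fit 6 genes of the list were called. Etv4, Fosl1 and Fgf4 missed the threshold there (adjusted p = 0.162, 0.262 and 0.0876).

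More genes of the naive state rose than fell, and more genes of the primed epiblast fell than rose. Of 20 naive genes, each detected on all 4 arrays, 11 rose and 2 fell, with a median of 0.34 and a normal difference of -0.06. Jam2, a junction protein, rose by 0.85, Manba by 0.96, and Pecam1 by 1.34, where Pecam1 missed the threshold without parthenogenetic replicate 1 or H19-labelled replicate 2 (adjusted p = 0.144 and 0.132). Klf4, Stat3 and Esrrb, factors of the naive network, changed by 0.14, -0.09 and 0.23 and missed the threshold. Gbx2, a target of LIF and STAT3, fell from 12.81 and 12.74 to 11.72 and 11.75 (adjusted p = 0.000485).

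Of 16 primed genes 8 fell and 2 rose, with a median of -0.33 and a normal difference of -0.26, and of the 14 detected on all 4 arrays 6 fell. Pou3f1, a factor of the epiblast, stood at 9.72 and 9.66 against 11.40 and 11.26 (3.11-fold lower, adjusted p = 0.000425), and Dnmt3b, a DNA methyltransferase, fell by 0.89. Otx2, which marks the early primed state, ran the other way at 11.05 and 11.10 against 10.31 and 10.20 (0.82, adjusted p = 0.00111), and was also 0.94 above the Igf2-labelled line (adjusted p = 0.00195). Of 18 core pluripotency genes 9 rose and 1 fell, with a median of 0.26 and a normal difference of -0.25. Off chromosome 6 and the fibroblast list 7 of 16 rose and 1 fell, with a median of 0.20. Eras, an ES cell RAS, rose by 0.81 and Gdf3, on chromosome 6, by 0.49. Mybl2 fell by 0.46, but its other probes gave -0.19 and 0.32, and it missed the threshold without H19-labelled replicate 1 or parthenogenetic replicate 2 (adjusted p = 0.0573 and 0.0566). Without H19-labelled replicate 1 the core list had 6 calls. Adding the normal arrays left 4 naive, 3 primed and 1 core gene called, and Nanog, Gdf3, Eras, Pecam1 and Dnmt3b missed the threshold.

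**Figure D5:**
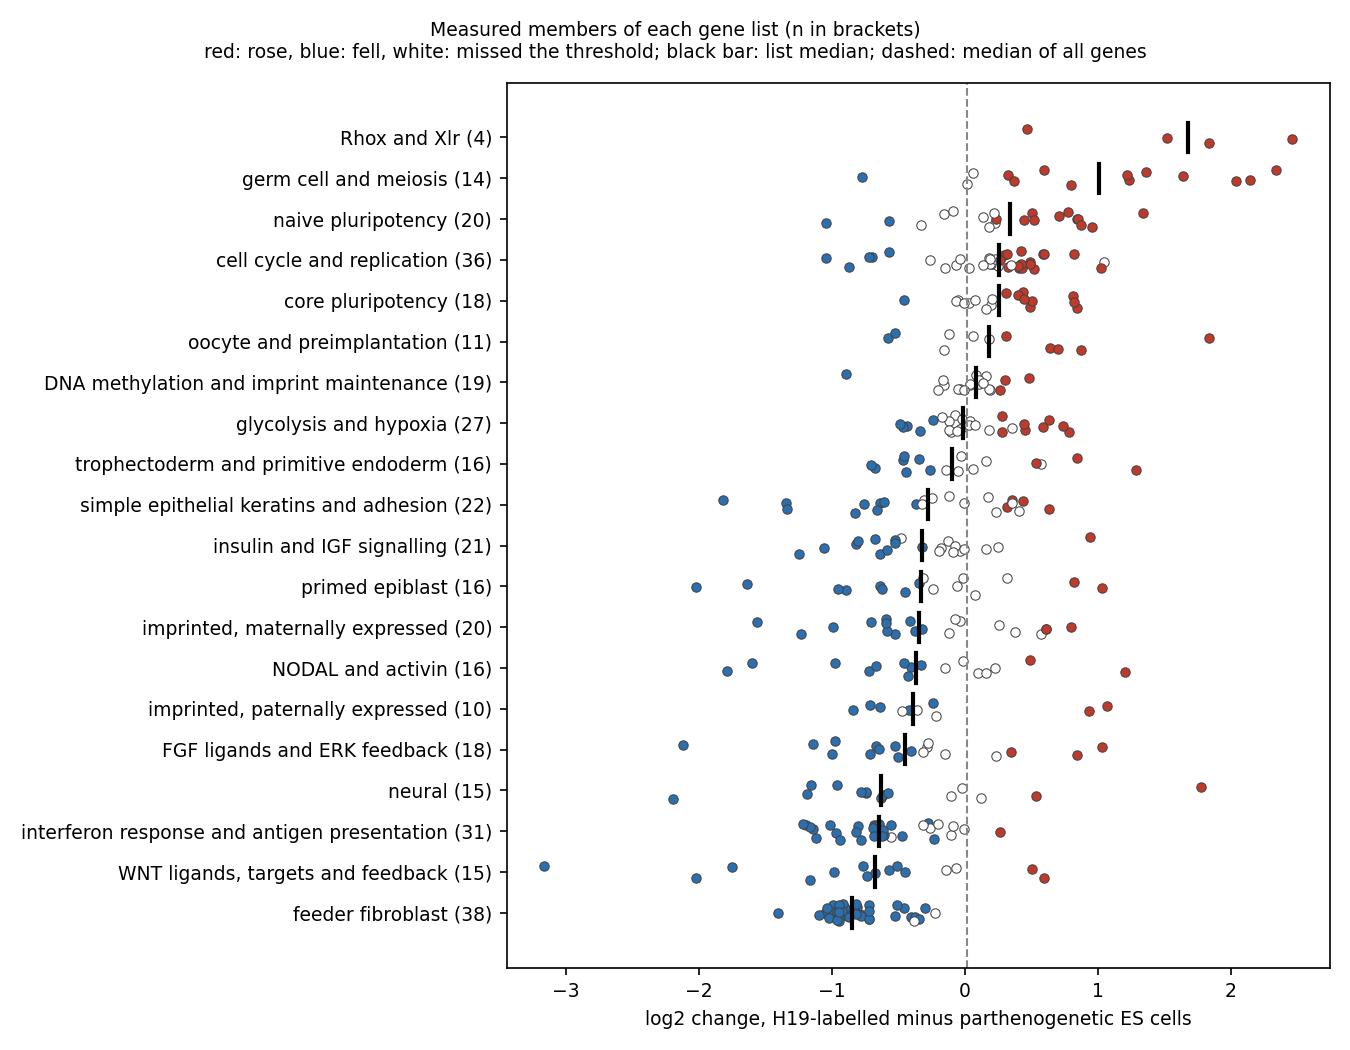
Log2 change, H19-labelled minus parthenogenetic, of every measured member of the 20 gene lists, ordered by list median (black bar), with the median of all genes as a dashed line; points are coloured by the test and jittered vertically. Rhox and Xlr (1.68) and germ cell genes (1.01) have the highest medians, and WNT (-0.68) and feeder fibroblast genes (-0.85) the lowest.

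Krt8 and Krt18, the paired keratins of simple epithelia, fell. Krt8 stood at 8.48 and 8.47 on the H19-labelled arrays, 10.29 on each parthenogenetic array, 9.47 and 9.51 in the Igf2-labelled line, and 10.32 and 10.22 in normal cells. It was 3.52-fold lower than in the control and 2.02-fold lower than in the Igf2-labelled line (adjusted p = 0.00012 and 0.0017). Its filament partner Krt18 fell by 1.34 and the epithelial splicing factor Esrp1 by 1.35. Of the other keratins listed Krt17 rose by 0.35 (adjusted p = 0.0283), and Krt7, Krt20 and Krt19 missed the threshold (-0.32, -0.12 and 0.23). The list as a whole was mixed, with 9 of 22 measured genes falling, 4 rising and a median of -0.28. S100a10, Lgals3 and S100a11, which fibroblasts also express, fell by 0.83, 0.76 and 0.66, while the tight junction genes Cldn4 and Tjp1 missed the threshold (-0.31 and 0.17, adjusted p = 0.0821 and 0.334). The median normal difference was 0.30, and 3 genes were called with the normal arrays in the fit.

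Markers of other cells that an ES culture can hold were mixed for trophectoderm and primitive endoderm and mostly lower for neural genes. Of 16 trophectoderm and primitive endoderm genes 7 fell and 3 rose, with a median of -0.10 and a normal difference of -0.27. These shares were 43.8% and 18.8%, against 18.7% and 16.2% of all genes. Off chromosome 6 and the fibroblast list 5 of 14 fell and 3 rose, with a median of -0.04. Lamb1, Dab2 and Col4a2, which primitive endoderm expresses, fell by 0.71, 0.67 and 0.46, and Amn and Lama1 rose by 1.29 and 0.54. Eomes, a trophectoderm factor, and Lamc1 missed the threshold (-0.05 and -0.03), as did Col4a2 without H19-labelled replicate 2 (adjusted p = 0.0599). Amn stood at 7.30 and 10.72 on the normal arrays. Tfap2a, undetected in the control, was at least 1.54-fold higher. Of 15 neural genes 10 fell and 2 rose, with a median of -0.63 and a normal difference of 0.02. Nsg2, a neuronal vesicle protein, was undetected on the H19-labelled arrays against 8.41 and 8.43 in the control, at least 3.53-fold lower (adjusted p = 0.000114). Map2 fell by 1.19. Mapt, on the same list, ran the other way and rose by 1.77, with a second probe at 0.50. Tubb3, Stmn2 and Ncam1, which neurons express highly, were at or below 0.12 in size of change and missed the threshold, although a second Ncam1 probe, undetected on the H19-labelled arrays, passed it (adjusted p = 0.0404). Without parthenogenetic replicate 1 or H19-labelled replicate 2 the trophectoderm and endoderm list had 6 calls. The fit of all 8 arrays called 1 gene of the trophectoderm and endoderm list and 6 neural genes.

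Other large falls were of varied function. Wt1, a transcription factor of kidney and gonad, stood at 6.78 and 6.91 against 9.36 and 9.48 (5.95-fold lower, adjusted p = 0.00013), with 7.86 and 8.08 in the Igf2-labelled line and 9.30 and 9.70 in normal cells. The iron exporter Slc40a1 stood at 7.78 and 7.86 against 9.91 and 9.93 (4.30-fold lower), and read 9.83 and 8.16 on the normal arrays. Trim2, a ubiquitin ligase, fell by 1.68 and the carbonic anhydrase Car4, detected on only 1 H19-labelled array, by 1.74. With no background correction Wt1 and Car4 changed by -1.89 and -1.10. Insm1, a factor of neuroendocrine cells, was undetected on the H19-labelled arrays and at least 1.48-fold lower. Slc40a1 missed the threshold with the normal arrays in the fit.

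Maternally expressed imprinted genes, which these cells carry in double maternal dose, were more often lower than higher. Of 20 measured genes 11 fell and 3 rose, with a median of -0.35 and a normal difference of 0.17. Of the 16 detected on all 4 arrays 11 fell and 2 rose. Off chromosome 6 and the fibroblast list 9 of 16 fell and 2 rose. Cdkn1c, a brake on the cell cycle from the Kcnq1 imprinted domain, stood at 9.89 and 9.80 on the H19-labelled arrays, 11.38 and 11.44 on the parthenogenetic arrays, 10.50 and 10.34 in the Igf2-labelled line, and 10.17 and 10.97 in normal cells. It was 2.96-fold lower than in the control and 1.49-fold lower than in the Igf2-labelled line (adjusted p = 0.000288 and 0.00684). Phlda2, its neighbour that limits placental growth, fell by 1.23 but did not differ past the threshold from the Igf2-labelled line (adjusted p = 0.0996).

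Igf2r, the receptor that clears IGF2, stood at 10.27 and 10.25 against 10.82 and 10.87, with 10.57 on each Igf2-labelled array and 10.78 and 10.54 on the normal arrays. It was 1.5-fold lower than in the control (adjusted p = 0.00152), and a second probe fell by 0.41. Atp10a and Blcap fell by 0.99 and 0.70, Cobl rose by 0.80, and Ube3a, which is imprinted in neurons, missed the threshold (0.25, adjusted p = 0.144). Paternally expressed genes, which these cells are expected to lack from a paternal copy, were measured for 10 of 32 listed. Of them 5 fell and 2 rose, with a median of -0.39 and a normal difference of 0.16. Against the Igf2-labelled line 5 were called lower, where 13.1% of all genes were. Ndn, a growth suppressor gene of neurons, fell by 0.84, Inpp5f by 0.71 and Dlk1 by 0.42, and Slc38a4, an amino acid transporter, and Ddc rose by 0.94 and 1.07. Dlk1 missed the threshold when any 1 of the 4 arrays of the comparison was left out. Under all 8 arrays 3 maternal and 3 paternal genes were called, and Phlda2, Blcap, Cobl, Ndn and Dlk1 missed it.

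Among insulin and IGF signalling genes, the falls included binding proteins. Of 21 measured genes, each detected on all 4 arrays, 10 fell and 1 rose, with a median of -0.32 and a normal difference of 0.38. Irs2, an adaptor of the insulin receptor, stood at 9.32 and 9.37 against 10.52 and 10.66 (2.37-fold lower, adjusted p = 0.000791), and 10.44 and 10.74 on the Igf2-labelled arrays. The IGF binding protein genes Igfbp6, Igfbp3, Igfbp7 and Igfbp2 fell by 1.06, 0.82, 0.81 and 0.68, and Igfbp6 and Igfbp7 were lower on normal replicate 2 than on replicate 1, at 6.02 against 7.96 and 12.64 against 14.54. Igf2bp3, an RNA-binding protein on chromosome 6, rose by 0.94. The adaptor Shc1, Eif4ebp1 and Igf2bp1 missed the threshold. The 8-array fit called 2 of these genes.

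Interferon response and antigen presentation genes fell widely. Of 31 measured genes 23 fell and 1 rose, with a median of -0.64 and a normal difference of 0.85, and of the 30 detected on all 4 arrays 22 fell. Rsad2, an antiviral enzyme, stood at 10.18 and 10.27 against 11.47 and 11.42 (-1.22, adjusted p = 0.000442). The ubiquitin-like protein gene Isg15 and the guanylate-binding protein gene Gbp2 fell by 1.12 and 1.19, and Ifit3 and Ifit2, which bind foreign RNA, by 1.16 and 1.14. H2-K1, a class I molecule, rose by 0.27. Irf1 and Ifitm2 missed the threshold (-0.01 and -0.10), as did Bst2 (-0.55, adjusted p = 0.0948). The list moved with the fibroblast list across arrays: its mean level was 10.26 on both H19-labelled arrays, 10.87 and 10.89 on the parthenogenetic arrays, 10.80 and 10.78 in the Igf2-labelled line, and 10.92 and 10.06 in normal cells. Against the Igf2-labelled line 23 genes were called lower, where 13.1% of all genes were. With the normal arrays in the fit 1 gene was called against the control.

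Cell cycle genes that rose included replication factors and the inhibitor gene Cdkn1b. Those that fell included other inhibitors, D-type cyclin genes and Myc. Of 36 measured genes 16 rose and 5 fell, with a median of 0.26 and a normal difference of -0.44. Off chromosome 6 and the fibroblast list 14 of 33 rose and 4 fell, with a median of 0.25. Mcm2, a helicase subunit on chromosome 6, rose by 0.82, and Mcm3, Mcm4, Mcm5, Mcm6 and Mcm7 rose as well. The inhibitors Cdkn2b and Cdkn1a fell by 0.87 and 0.72 and the D-type cyclin gene Ccnd2, on chromosome 6, by 0.70, whereas Cdkn1b, also on chromosome 6, rose by 1.03. Ccnd1, another D-type cyclin gene, fell by 0.57, while Ccnd3 missed the threshold (0.18), although another Ccnd3 probe rose by 0.50 (adjusted p = 0.00639). Myc was undetected on the H19-labelled arrays against 7.62 and 7.35 in the control, at least 1.84-fold lower (adjusted p = 0.00508). Cdkn1b missed the threshold without H19-labelled replicate 2 or parthenogenetic replicate 2 (adjusted p = 0.0614 and 0.0579). Only 1 gene was called with all 8 arrays in the fit, and without H19-labelled replicate 2 the count was 13.

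Glycolysis and hypoxia genes gave no common direction, with 8 of 27 rising, 5 falling, a median of -0.02 and a normal difference of 0.75. These shares were 29.6% and 18.5%, against 16.2% and 18.7% of all genes. Off chromosome 6 and the fibroblast list 4 of 22 rose and 5 fell, with a median of -0.05. Those shares, 18.2% and 22.7%, stand against 13.9% and 18.7% of all such genes. Of the 8 rises, Slc2a3 (0.74), a glucose transporter, Hk2 (0.64), a hexokinase, Eno2 (0.59) and Tpi1 lie on chromosome 6, and Pfkp (0.78), a phosphofructokinase, does not. Gapdh, Pkm and Ldha missed the threshold, and Egln3 and P4ha1, oxygen-sensing and collagen hydroxylases, fell by 0.47 and 0.49. A second Egln3 probe gave -0.24 (adjusted p = 0.486), and without H19-labelled or parthenogenetic replicates in turn 6 or 7 genes of the list were called. P4ha1 missed the threshold without H19-labelled replicate 1 or 2 or parthenogenetic replicate 2. Of 19 genes of DNA methylation and imprint maintenance 3 rose and 1 fell, with a median of 0.09 and a normal difference of -0.31. These shares, 15.8% and 5.26%, were not above the 16.2% and 18.7% of all genes. Dnmt3l, a cofactor of germline methylation, rose by 0.49, Uhrf1, which guides maintenance methylation, by 0.31 and the insulator protein gene Ctcf by 0.26, and Dnmt3b fell. Uhrf1 and Ctcf missed the threshold when any 1 of the 4 arrays was left out. Ctcf, with an adjusted p of 0.0476 in the main fit, passed it in 8 of 18 alternative settings. Dnmt3l, Uhrf1, Ctcf and Dnmt3b missed it with the normal arrays in the fit, which called 2 glycolysis genes.

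The direct test of the H19-labelled against the Igf2-labelled line called 2652 probes (20.9%), 1138 higher and 1514 lower. Both lines are compared with the same parthenogenetic arrays, so their changes are given side by side only. Dazl stood 2.14 above the control in the H19-labelled line and 1.20 above it in the Igf2-labelled line, and Krt8 differed from it by -1.82 and -0.80. For Sp5 these differences were -3.16 and -2.43, the first with a reading at background on 1 H19-labelled array. The germ cell list had a median difference of 0.69 between the lines. In the H19-labelled line 11 of its 14 genes were called higher, where 8.83% of all genes were. Dppa3, a germline and oocyte factor on chromosome 6, was at 8.55 and 8.64 in the H19-labelled line, 8.83 and 8.68 in the control (adjusted p = 0.275), and 9.70 and 9.51 in the Igf2-labelled line, which was 1.01 higher than the H19-labelled line (adjusted p = 0.00203). Zscan4c ran the other way and was 1.06 higher in the H19-labelled than in the Igf2-labelled line (adjusted p = 0.0021). Leaving out an H19-labelled array gave 1321 and 1185 probes between the lines, and leaving out an Igf2-labelled array 1481 and 1325. Between the lines 22 probes were called when the normal arrays were in the fit.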

How the data were processed

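RNA from 8 samples, 2 in each of 4 groups taken from the titles, was purified with Trizol and a column and amplified as biotinylated cRNA, per the labels' protocols. The authors deposited an intensity for each probe, without normalization across arrays, and a detection p-value beside it, per the file headers. The authors' deposited log2 table of 12690 probes was found to hold those whose detection p-value was under 0.05 on at least 4 arrays, and no others. How both tables were made is not given in the labels used here. Each of the 4 groups has 2 arrays, and that number limits the precision.

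All 8 arrays went together through neqc of limma 3.58.1 (R 4.3.3), which corrects background from the detection p-values, normalizes by quantiles and takes log2, here with an offset of 16. The probes kept had a detection p-value under 0.05 on both H19-labelled or both parthenogenetic arrays, a filter that passes genes high in either group alone, so counts over probes detected on all 4 arrays are also given. Group means were fitted over 6 arrays, without the normal ones, with lmFit and eBayes, on 3 residual degrees of freedom and a prior of 3.34. Adjusted p-values are Benjamini-Hochberg values over all 12669 probes, from limma. A gene is its probe of highest mean. Where a group detected a probe on no array, the fold is "at least" the bright group's mean over the dim group's, in which each array counts at its own reading or at its lowest detected reading, whichever was greater.

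Names came from the platform annotation (11960 probes with 1 symbol, 0 with several, 13737 without). RefSeq (GRCm38.p6) held the identifiers of 11953 of them and supplied the chromosome and order of each gene. Named genes were Igf2, 6 markers, the 12 largest rises and falls off chromosome 6 and the fibroblast list whose groups do not overlap, the 6 largest each way on chromosome 6, and for each of 20 lists up to 6 called members and up to 3 that missed the threshold. Members, lists, tests and the rule were chosen with earlier results of these data known, so nothing here is independent of them. A few others are named from counts after their values were seen.

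The fit of the H19-labelled against the parthenogenetic group was run on simulated data with 200 changed probes among 12669. It found 30.4% of the probes shifted by 0.5 log2 units, 88.6% of those shifted by 1 and 98.2% of those shifted by 2. Among the calls 5.57% were false. The simulation used independent noise and changed far fewer probes than the 34.3% called in the data. These rates therefore do not carry over to this comparison. Differences of culture or feeder cells were not simulated.

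The replicate numbers of the titles were examined as a pairing: deviations of same-numbered H19-labelled and parthenogenetic arrays correlated at 0.09 over probes, H19-labelled and Igf2-labelled arrays at 0.18, and parthenogenetic and Igf2-labelled arrays at 0.11, with no label of a shared batch or day. Alternatives were other background corrections, detection filters, priors, probes and arrays in the fit.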

Additional observations from a re-analysis of the deposited data

How the results depend on the processing

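The number of probes called between the H19-labelled and the parthenogenetic arrays (4343) depended most on whether the normal arrays entered the fit. With all 8 arrays in the fit 575 probes, 74 chromosome 6 genes (308 without them) and 22 probes between the modified lines (2652 without them) were called, 58.3% of the 575 were rises against 48.8%, and 77 of 182 named genes lost their call, none reversing. Leaving out 1 array at a time gave 2834 to 4124 probes, 242 to 298 chromosome 6 genes, a fibroblast median of -0.88 to -0.79, and 1185 to 2273 probes between the modified lines. The lowest counts came without H19-labelled replicate 2, and without parthenogenetic replicate 1 the first was 2882, while the last was 1321 without H19-labelled replicate 1 and 1481 and 1325 without either Igf2-labelled array. A group left with 1 array was assumed to vary like the others. The replicate block gave 4301 probes, 4049 of them also called without it, 302 chromosome 6 genes and 2512 probes between the modified lines. The numbers share no known source, so this fit is a description. Under the other background corrections, detection filters, priors and the authors' log2 table, the counts stayed within 1.5 times. No setting moved the median of all genes by 0.1. With the probe of largest variance for each gene, Mybl2 reversed to 0.32 (adjusted p = 0.113). The causes of these changes were not tested, apart from the fewer arrays. Probes near background limit genes such as Sp5 and Epha1, and probes near the brightest readings limit Igf2.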
